A study of Mus musculus with 39 samples.

Results

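The acetylcholine receptor of skeletal muscle and the proteins that gather it under the motor nerve ending were followed through 10 genes chosen by symbol: the receptor subunit genes Chrna1, Chrnb1, Chrnd, Chrng and Chrne, and Agrn, Lrp4, Musk, Dok7 and Rapsn of the pathway that clusters the receptor. All 10 genes were found among the 21561 Ensembl genes held by both deposited count tables. The muscle receptor is an acetylcholine-gated channel assembled from alpha, beta and delta subunits together with a gamma subunit in immature muscle or an epsilon subunit in mature muscle, so that Chrng gives way to Chrne as synapses mature. Agrin released by the motor axon binds LRP4 on the fibre surface and activates the receptor tyrosine kinase MuSK, which needs the adaptor DOK7, and rapsyn then anchors the receptors in dense clusters. Transcription of the subunit genes is driven by myogenic factors along young or denervated fibres and becomes restricted to the nuclei under the synapse once the fibre is innervated.

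RNA-seq had been performed on tissue of male C57BL/6J mice that were wild type (WT), carried the cetacean INSL3 coding sequence in place of mouse Insl3 at the native locus with the mouse regulatory elements kept (INSL3-KI), or lacked INSL3 (INSL3-KO). INSL3 is a Leydig cell hormone that acts on the gubernaculum through its receptor RXFP2. The knock-in allele was the cDNA of the minke whale, and the INSL3-KI mice were homozygous, with the selection cassette removed; how the INSL3-KO allele was made is not given in the sources used here. No group received a treatment. The gubernaculum, the cord between testis and inguinal wall in which the cremaster muscle forms, was represented by 5 groups of 3 libraries: WT, INSL3-KI and INSL3-KO at postnatal day 8 (P8), and WT and INSL3-KI at P23. A further 24 testis libraries in 8 groups (P8, P23 and P40) served as reference. The labels call the replicates biological but do not say how many animals a library holds, so p-values measure the spread between these libraries.

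Gubernaculum libraries held 29861447 to 45260372 counts (median 36407180), and 94.16 to 97.86% of the counts of all 39 libraries fell in the shared genes. Mouse Insl3 had no count in any INSL3-KI or INSL3-KO gubernaculum library at P8 (0.75 to 2.74 CPM in WT), while at P23 it overlapped between INSL3-KI (0 to 0.86 CPM) and WT (0.284 to 1.07 CPM). In testis at P8 the libraries labelled INSL3-KO held 13.5 to 17.9 CPM of Insl3, against 63.5 to 79.7 CPM in WT. No test below uses those testis libraries, but the INSL3-KO gubernaculum libraries carry the same genotype label and age. Whether they came from the same animals is not given in the sources used here. Rxfp2 was lower in INSL3-KI gubernaculum at P8 (log2 fold change -4.70, edgeR adjusted p = 5.71e-07) and missed the threshold in INSL3-KO (-1.35, adjusted p = 0.0287). The INSL3-KO libraries stood in a count table separate from the WT and INSL3-KI gubernaculum libraries, so genotype and table cannot be told apart in any comparison with INSL3-KO. Levels are given as CPM, counts scaled to the TMM-adjusted library size, set over the 15 gubernaculum libraries. A gene was called changed at a Benjamini-Hochberg adjusted p under 0.01 in edgeR's quasi-likelihood test, adjusted over all genes tested, together with a change of at least 2-fold. Scaling by library size alone, in place of TMM, moved the median of all genes by 0.34 (log2) in INSL3-KI and 0.20 in INSL3-KO against WT at P8, 0.18 in INSL3-KI against INSL3-KO, 0.41 at P23 and -0.11 with age in WT. It turned the calls over all genes from 1503 lower and 2238 higher to 1133 and 3144 in INSL3-KI against WT at P8, from 2374 and 2420 to 1988 and 3029 in INSL3-KO, from 1650 and 1865 to 1224 and 2491 between the mutants, and from 355 and 32 to 308 and 74 at P23.

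The tissue content of the libraries differed between the groups. The summed level of 14 muscle fibre genes, the highest of which were Acta1 and Myl1, ranged from 38280 to 39960 CPM in WT at P8, from 819 to 1381 CPM in INSL3-KI, where Acta1 alone made up 670 to 1238 CPM, and from 9625 to 10420 CPM in INSL3-KO. All 14 fibre genes fell in both mutants at P8. At P23 the sum ranged from 71890 to 129900 CPM in WT and from 45.1 to 1080 CPM in INSL3-KI. The developmental myosins Myh3 and Myh8 summed to 1.85 to 7.69 CPM in INSL3-KI at P8, against 10730 to 14030 CPM in WT and 714 to 771 CPM in INSL3-KO. Markers of some other cell types were higher in the mutants: 5 smooth muscle genes summed to 1208 to 1585 CPM in WT, 14470 to 18100 CPM in INSL3-KI and 6619 to 7018 CPM in INSL3-KO at P8, and 5 adipocyte genes to at most 2.07 CPM in WT against at least 505 CPM in either mutant. Of 5 epididymal markers, Crisp1 reached 618 to 1557 CPM in INSL3-KI and 989 to 1108 CPM in INSL3-KO at P8, but 0 to 0.095 CPM in WT. It made up most of their sum (624 to 1568 CPM in INSL3-KI and 1007 to 1123 CPM in INSL3-KO). In each mutant, 3 of the 5 had a mean under 1 CPM. The 4 adult myosins summed to 1494 to 2872 CPM in WT, 1.995 to 22.2 CPM in INSL3-KI and 443 to 484 CPM in INSL3-KO at P8, 5 satellite cell and myoblast genes to 338 to 375, 42.7 to 47.1 and 138 to 158 CPM, and 5 fibroblast genes to 23650 to 25400, 10170 to 15850 and 15390 to 16400 CPM. At P8, 5 macrophage and leukocyte genes summed to 198 to 489 CPM in WT, 313 to 323 CPM in INSL3-KO, which overlapped WT, and 135 to 161 CPM in INSL3-KI, which lay below it. The sum of 7 genes of testis cells was 11.5 to 22.2 CPM in WT and lay higher in INSL3-KI (48.0 to 66.3 CPM) and INSL3-KO (40.1 to 48.6 CPM), where Sox9 reached 40.7 to 54.6 and 30.4 to 35.9 CPM. At P23, WT replicate 3 held 1046 CPM of Crisp1 while the other WT libraries held at most 0.126 CPM, and INSL3-KI replicate 2 stood apart from replicates 1 and 3, with a smooth muscle sum of 1844 against 13210 and 11830 CPM. The part of tissue content in the results was not tested, except where a fit relative to the fibre genes is given. In these bulk libraries, fewer muscle fibres and less RNA per fibre cannot be told apart.

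**Figure D1:**
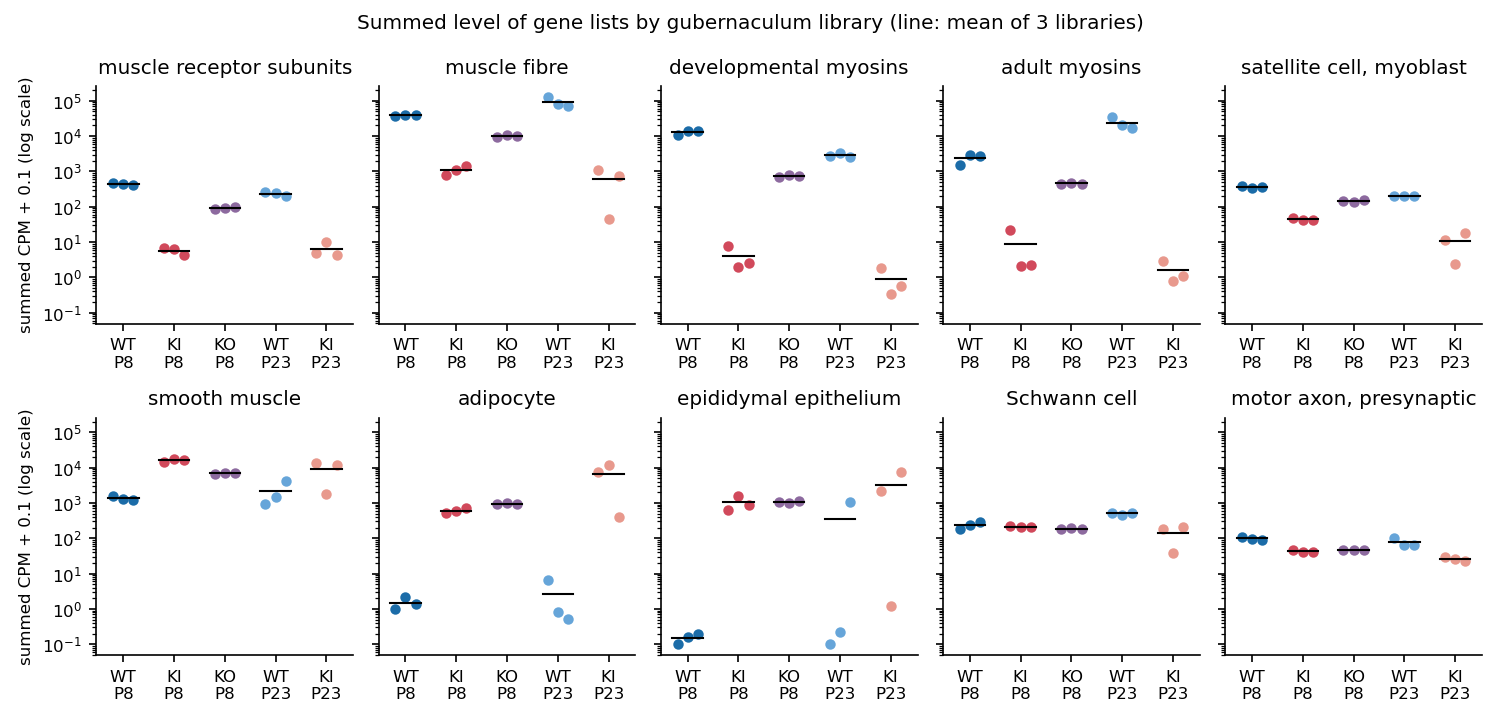
Summed level of each marker list by gubernaculum library, in CPM + 0.1 on a log axis, with 1 point per library and a line at the mean of 3. The muscle fibre and myosin sums of INSL3-KI lie far below those of WT at both ages and those of INSL3-KO lie between them at P8, while smooth muscle, adipocyte and epididymal sums lie higher in the mutants at P8. Crisp1 makes up most of the epididymal sum in the mutants at P8.

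The members lie on 5 chromosomes of GRCm38, and the delta and gamma subunit genes are neighbours: Chrnd occupies chr1:87190607-87200070 and Chrng chr1:87204657-87212694, both on the forward strand with 4586 bases between them. Chrna1 lies at chr2:73563215-73580338 (reverse strand), Chrnb1 at chr11:69784036-69795943 (reverse) and Chrne at chr11:70614883-70619216 (reverse). For the pathway, Agrn lies at chr4:156165290-156197488 (reverse), Musk at chr4:58285960-58374303 (forward), Lrp4 at chr2:91457511-91513779 (forward), Rapsn at chr2:91035620-91045729 (forward) and Dok7 at chr5:35056766-35087839 (forward). All 10 are protein-coding genes.

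Promoter sequences from RefSeq (GRCm38.p6) were matched for 7 of the 10 members and searched on both strands for the E-box CANNTG, the site of myogenic factors such as MyoD and myogenin, for its form CAGCTG, which is therefore counted within CANNTG too, and for the N-box CCGGAA, a site for ETS factors such as GABP in synaptic promoters. The stretches of 4 members that hold CAGCTG or CCGGAA are shown because these members changed strongly between groups or exchange with each other as the synapse matures, with CAGCTG and CCGGAA in capitals.
Chrna1, chr2:73580339-73580588 (reverse strand): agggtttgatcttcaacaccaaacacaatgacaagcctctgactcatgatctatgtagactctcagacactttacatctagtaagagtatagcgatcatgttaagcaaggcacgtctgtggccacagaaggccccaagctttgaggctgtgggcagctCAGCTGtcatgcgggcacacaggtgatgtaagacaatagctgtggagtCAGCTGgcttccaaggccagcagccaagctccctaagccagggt
Chrng, chr1:87205561-87205809 (forward strand): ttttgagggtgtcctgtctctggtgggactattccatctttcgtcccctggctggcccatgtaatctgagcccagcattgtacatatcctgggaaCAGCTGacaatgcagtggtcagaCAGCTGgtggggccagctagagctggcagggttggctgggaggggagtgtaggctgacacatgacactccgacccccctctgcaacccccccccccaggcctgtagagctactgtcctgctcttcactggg
Chrne, chr11:70619217-70619444 (reverse strand): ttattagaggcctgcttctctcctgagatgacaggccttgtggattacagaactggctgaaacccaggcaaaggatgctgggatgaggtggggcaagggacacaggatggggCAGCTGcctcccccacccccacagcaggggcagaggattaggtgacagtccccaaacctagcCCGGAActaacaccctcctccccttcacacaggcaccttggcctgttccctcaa
Musk, chr4:58285712-58285959 (forward strand): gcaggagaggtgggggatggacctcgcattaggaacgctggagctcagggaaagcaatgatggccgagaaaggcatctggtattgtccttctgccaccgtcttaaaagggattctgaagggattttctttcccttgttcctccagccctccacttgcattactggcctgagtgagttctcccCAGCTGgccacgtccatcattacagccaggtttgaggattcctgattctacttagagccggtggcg
In Chrna1 the CAGCTG copies began 92 and 44 bases before the RefSeq start, and in Chrng 155 and 132 bases before it. Chrne held CAGCTG 138 bases and CCGGAA 76 bases before its start, and Musk held CAGCTG 68 bases before its start. The searched promoters of Chrnb1, Agrn and Dok7 held neither CAGCTG nor CCGGAA. The wider form CANNTG occurred 3 times each in Chrna1, Chrnb1, Chrng and Musk. It occurred 1 time each in Chrne, in 1 Dok7 promoter and in 1 Agrn promoter, and the other promoter of Dok7 and of Agrn held none. Among 32851 promoters of the same table, 13.0% held CAGCTG in the 250 bases before the start, 1.26% held it at least 2 times, 12.0% held CCGGAA on either strand and 66.2% held CANNTG. The RefSeq start of Chrng lies inside the gene span given above, so its stretch precedes only that start. A match describes the letters and not a bound site.

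In WT gubernaculum at P8 the members were ordered per transcript length by FPKM, the length- and depth-scaled fragment value that the authors deposited. Chrnb1 led with 57.0 ± 3.10 (SD, n = 3), followed by Rapsn with 41.4 ± 10.03, Chrna1 with 30.3 ± 2.80, Chrng with 24.6 ± 2.59 and Chrnd with 20.9 ± 1.22. Agrn (16.9 ± 3.41) and Dok7 (15.2 ± 1.55) overlapped, as did Musk (7.53 ± 1.17) and Lrp4 (6.09 ± 1.46). Chrne came last with 0.611 ± 0.176 FPKM. The other neighbours in this order did not overlap across their 3 libraries. At P23 Chrnb1 again led with 49.5 ± 6.09 FPKM, while Chrng came last with 1.79 ± 0.878 FPKM, overlapping Lrp4 (2.72 ± 1.13 FPKM). Chrne had moved up to 4.71 ± 1.16 FPKM, where it overlapped Chrnd (4.94 ± 1.13 FPKM).

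**Figure D2:**
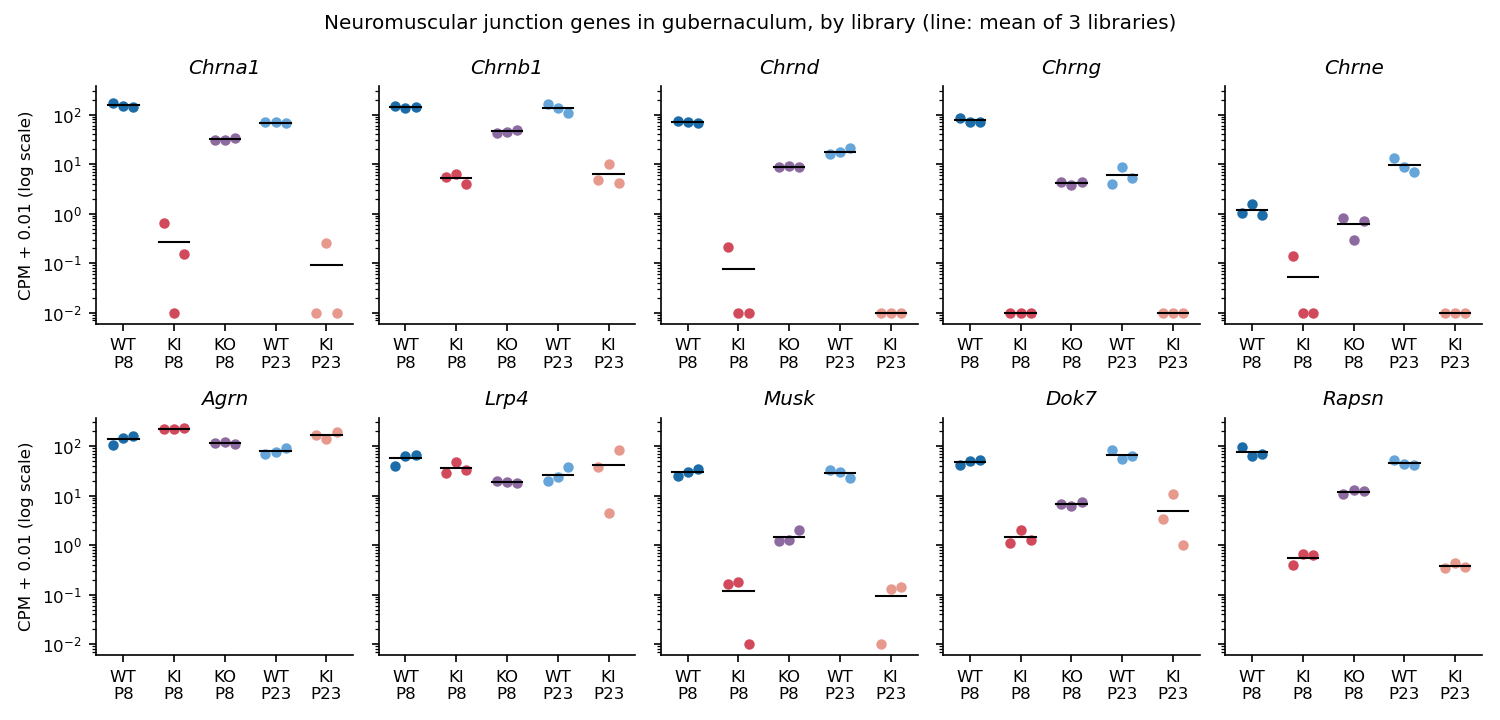
Level of the 10 genes by gubernaculum library, in CPM + 0.01 on a log axis, with 1 point per library and a line at the mean of 3. The receptor subunits, Musk, Dok7 and Rapsn lie below WT in every INSL3-KI library, where Chrng lies at 0. Chrnb1 keeps 3.97 to 9.96 CPM over both ages in INSL3-KI, and Dok7 keeps 0.993 to 10.6 CPM. Agrn and Lrp4 keep measurable levels in every library as well, Lrp4 with a spread from 4.46 to 83.0 CPM in INSL3-KI at P23.

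Receptor subunits were nearly absent from the INSL3-KI gubernaculum at P8 and reduced in the INSL3-KO gubernaculum. Of the 10 members, 8 fell and 0 rose in INSL3-KI against WT, where 9.7% of all 15500 genes tested were called lower and 14.4% higher, and 8 fell and 0 rose in INSL3-KO against WT, where 15.2% of 15609 genes were called lower and 15.5% higher. Both comparisons share the WT libraries. The median log2 fold change of the members was -6.06 in INSL3-KI, also with Chrng at its bound, and -2.48 in INSL3-KO, against 0.02 and 0.04 over all genes. By edgeR 1 member was higher at an unadjusted p under 0.05 in INSL3-KI and 0 in INSL3-KO, and DESeq2 called 0 higher in either.

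Chrna1, the alpha subunit that carries the acetylcholine binding site, stood at 168, 152 and 142 CPM in the WT libraries at P8, at 0.634, 0 and 0.146 CPM in INSL3-KI and at 30.3, 30.8 and 34.1 CPM in INSL3-KO. The 3 groups did not overlap, and the INSL3-KI values rested on 25, 0 and 5 counts. The change was -9.09 on the log2 scale in INSL3-KI (SE 0.53, edgeR adjusted p = 4.34e-06) and -2.29 in INSL3-KO (SE 0.09, adjusted p = 2.17e-06), which left 20.6% of the WT mean in INSL3-KO.

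Chrnb1, the beta subunit, stood at 151, 136 and 142 CPM in WT, 5.53, 6.21 and 3.97 CPM in INSL3-KI and 42.2, 45.5 and 49.8 CPM in INSL3-KO. It kept the highest level of the subunits in both mutants, with 136 to 221 counts in each INSL3-KI library, and fell by 4.73 on the log2 scale in INSL3-KI (SE 0.18, edgeR adjusted p = 6.04e-07) and by 1.65 in INSL3-KO (SE 0.08, adjusted p = 5.49e-06). Chrnd, the delta subunit, stood at 74.3, 72.0 and 67.4 CPM in WT, 0.203, 0 and 0 CPM in INSL3-KI and 8.85, 9.04 and 8.63 CPM in INSL3-KO. It fell by 9.83 in INSL3-KI (SE 0.48, adjusted p = 1.96e-06), where replicate 1 alone held counts (8), and by 3.02 in INSL3-KO (SE 0.08, adjusted p = 7.64e-07).

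Chrng, the fetal gamma subunit, stood at 86.0, 69.9 and 72.0 CPM in WT at P8 (2733, 2332 and 2276 counts) and at 4.28, 3.77 and 4.33 CPM in INSL3-KO (164, 169 and 189 counts). No INSL3-KI library held a single count. With the floor set at 3 counts in each library, WT exceeded INSL3-KI at least 850-fold (edgeR adjusted p = 9.25e-07), and INSL3-KO exceeded it at least 47.0-fold. Its change of -4.21 in INSL3-KO against WT (SE 0.12, adjusted p = 9.18e-07) was the largest of the 5 subunits in that comparison and left 5.43% of the WT mean.

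Chrne, the adult epsilon subunit, was barely expressed in any P8 group, at 1.04, 1.53 and 0.949 CPM in WT, 0.127, 0 and 0 CPM in INSL3-KI and 0.809, 0.290 and 0.687 CPM in INSL3-KO. It was called lower in INSL3-KI (log2 fold change -4.57, SE 0.96, edgeR adjusted p = 0.00441), a call that rested on 33, 51 and 30 counts in WT against 5, 0 and 0 and was lost when WT replicate 1 or 2 or INSL3-KI replicate 2 or 3 was left out (adjusted p = 0.0105 to 0.0226). In INSL3-KO its change against WT missed the threshold (log2 fold change -0.99, SE 0.47, adjusted p = 0.0999), although the 3 INSL3-KO libraries lay below the 3 WT libraries.

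The mutants were also compared directly at P8. In INSL3-KI against INSL3-KO, 7 of the 10 members were lower and 0 higher, where 10.5% of 15642 genes were called lower and 11.9% higher, with a members' median of -3.67 against -0.01 for all genes. Chrna1 (log2 fold change -6.85, SE 0.68), Chrnb1 (-3.12, SE 0.17) and Chrnd (-6.87, SE 0.79) were lower in INSL3-KI in all 3 libraries, and Chrne missed the threshold (-3.62, SE 1.00, edgeR adjusted p = 0.0161). Rapsn (-4.45, SE 0.24), Musk (-3.72, SE 0.72) and Dok7 (-2.24, SE 0.26) were called lower too, Musk not without INSL3-KI replicate 1 or INSL3-KO replicate 2 or 3 (adjusted p = 0.0121 to 0.0129) and Dok7 not with all 5 groups in 1 fit (adjusted p = 0.0106). Agrn and Lrp4 lay higher in INSL3-KI without overlap, at 1.92-fold and 1.97-fold (adjusted p = 2.93e-05 and 0.00286), under the 2-fold threshold. Both were higher at an unadjusted p under 0.05, and DESeq2 called 0 members higher.

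**Figure D3:**
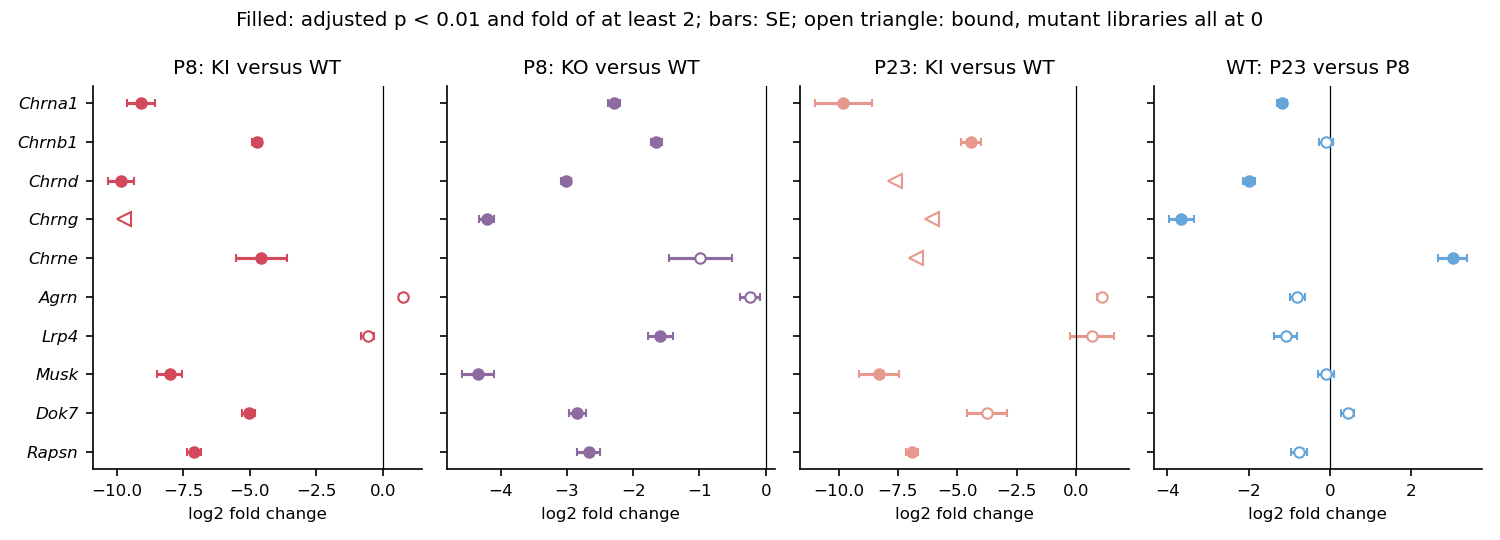
Fitted log2 fold change of the 10 genes in 4 comparisons, each with its own axis and bars for the standard error. Filled points passed both thresholds, open circles did not, and open triangles mark the bound for genes whose INSL3-KI libraries were all at 0, of which Chrng at P23 missed the threshold.

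The wild-type gubernaculum exchanged the gamma for the epsilon subunit between P8 and P23. Chrng fell from 86.0, 69.9 and 72.0 CPM to 3.87, 8.86 and 5.28 CPM, a log2 change of -3.66 (SE 0.31, edgeR adjusted p = 6.39e-04). Chrne rose from 1.04, 1.53 and 0.949 CPM to 13.4, 8.70 and 6.82 CPM, a change of 3.02 (SE 0.36, adjusted p = 0.00168). The age groups did not overlap for either gene. The Chrne call was lost without WT P8 replicate 1 or 3 (adjusted p = 0.0122 and 0.0127), and the count of 338, 276 and 217 at P23 against 33, 51 and 30 at P8 gives the depth behind the values.

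Within each library the exchange can be read as a ratio that does not depend on library scaling. Chrne made up 1.91, 3.46 and 2.02% of the summed FPKM of both genes in WT at P8 and 85.7, 62.7 and 68.7% at P23, with means of 2.46 ± 0.869% and 72.4 ± 11.9% (SD, n = 3). In INSL3-KO at P8 the share was 24.7, 12.0 and 23.7% (20.1 ± 7.09%), between the WT ages. On the log2 scale with 0.1 FPKM added, the ratio of Chrne to Chrng was 6.57 higher in WT at P23 than at P8 (SE 0.59) and exceeded the WT P8 ratio by 3.39 in INSL3-KO (SE 0.39). The two-sided exact permutation test gave p = 0.1 for both, the smallest value that 3 libraries against 3 allow, and neither pair of groups overlapped. In INSL3-KO the ratio stood higher with Chrng at 5.43% and Chrne at 50.8% of the WT P8 mean CPM, so Chrne did not rise in CPM. Relative to the muscle fibre genes, in the fit given below, Chrng was lower in INSL3-KO than in WT (log2 -2.25). Chrne lay higher on that scale (log2 0.98, SE 0.49) but was not called (edgeR adjusted p = 0.0892), and its libraries overlapped. Whether Chrne rose relative to fibre content was therefore not settled. No ratio was formed for INSL3-KI, where Chrng had no count at either age and Chrne had 5 counts at P8 and none at P23.

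**Figure D4:**
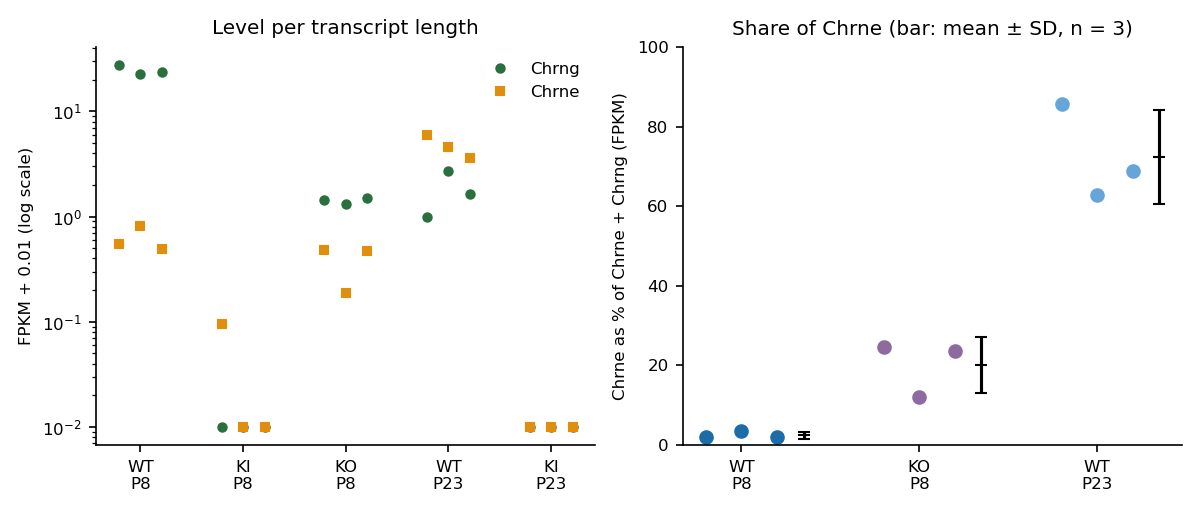
Left, FPKM + 0.01 of Chrng and Chrne in each gubernaculum library on a log axis; right, Chrne as a percentage of the summed FPKM of both genes, with the mean and SD of 3 libraries. Chrng lies above Chrne in every WT and INSL3-KO library at P8 and below it in all 3 WT libraries at P23.

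The other subunits did not share the rise of Chrne with age. Chrna1 went from 168, 152 and 142 to 70.2, 69.9 and 66.7 CPM in WT (log2 fold change -1.17, SE 0.12, edgeR adjusted p = 0.00125), and Chrnd from 74.3, 72.0 and 67.4 to 15.7, 17.2 and 21.0 CPM (-1.995, SE 0.14, adjusted p = 5.22e-04). Chrnb1, which is part of both receptor forms as those subunits are, stood at 163, 133 and 108 CPM at P23, around its P8 values (-0.09, SE 0.17, adjusted p = 0.692). In total 3 members fell and 1 rose with age in WT, where 4.34% of 14941 genes were called lower and 6.17% higher. When all 5 gubernaculum groups shared 1 fit, only the call of Chrng remained, with adjusted p = 0.15 for Chrna1, 0.0107 for Chrnd and 0.014 for Chrne.

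At P23 the subunits stayed near 0 in INSL3-KI, with 6 of the 10 members called lower and 0 higher against WT where 2.35% of 15082 genes were called lower and 0.212% higher. Chrna1 held 0, 8 and 0 counts (0, 0.246 and 0 CPM against 66.7 to 70.2 CPM in WT, log2 fold change -9.80, SE 1.19, edgeR adjusted p = 0.00807). Chrnd, Chrng and Chrne held no count in any of the 3 libraries and were at least 198-fold, 66.2-fold and 106-fold lower than in WT, with adjusted p = 0.00263, 0.0102 and 0.00674, so that Chrng missed the threshold. Chrnb1 alone kept a measurable level, at 4.83, 9.96 and 4.17 CPM against 163, 133 and 108 CPM in WT (-4.42, SE 0.42, adjusted p = 0.00411). Other markers moved with this contrast as well: satellite cell and myoblast genes summed to 196 to 206 CPM in WT and 2.33 to 17.7 CPM in INSL3-KI, fibroblast genes to 12950 to 31280 and 2623 to 9485 CPM, and adipocyte genes to at most 6.60 CPM in WT and at least 398 CPM in INSL3-KI. Their part in the result was not tested. The members' median was -7.61, or -6.39 with the 3 genes at their bounds, against 0.11 for all genes. Without the INSL3-KI replicate 2, which stood apart, 8 members were called lower; without WT replicate 3, which held Crisp1, 1 was, as without either other WT library; without INSL3-KI replicate 1 or 3, 3 and 4 were. By edgeR 1 member was higher at an unadjusted p under 0.05, Agrn, which DESeq2 called higher.

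Whether the INSL3-KI difference itself changed with age was tested as an interaction, in which 0 of 10 members were called in either direction by edgeR, where 0.194% of 16016 genes were called lower and 0.0874% higher. At an unadjusted p under 0.05, 1 member was lower and 0 higher, and DESeq2 called 1 lower. That member was Chrne (log2 difference -6.82, SE 1.82, edgeR adjusted p = 0.0601), which rose with age in WT and stood at 0 counts in INSL3-KI at P23. Between P8 and P23 within INSL3-KI, 5 members passed the filter on low counts and edgeR and DESeq2 called none of them, with 0% of 15271 genes called by edgeR in either direction and 1 member, Agrn, lower at an unadjusted p under 0.05 (-0.43, SE 0.16, adjusted p = 0.223).

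The genes of the clustering pathway divided into those with the course of the receptor and those without it. Musk, the kinase that organises the postsynaptic membrane, stood at 24.8, 30.3 and 34.6 CPM in WT at P8, 0.152, 0.169 and 0 CPM in INSL3-KI and 1.17, 1.27 and 1.99 CPM in INSL3-KO. It fell by 8.01 on the log2 scale in INSL3-KI (SE 0.46, edgeR adjusted p = 4.05e-06) and by 4.34 in INSL3-KO (SE 0.25, adjusted p = 8.96e-06). Rapsn, which encodes rapsyn, stood at 96.9, 62.4 and 69.9 CPM in WT, 0.381, 0.646 and 0.613 CPM in INSL3-KI and 11.0, 12.8 and 12.3 CPM in INSL3-KO, changes of -7.09 (SE 0.27, adjusted p = 6.04e-07) and -2.67 (SE 0.17, adjusted p = 1.57e-05). No library of one group reached the range of another for either gene.

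Dok7, the activator of MuSK, stood at 42.4, 51.0 and 52.3 CPM in WT at P8, 1.09, 1.97 and 1.26 CPM in INSL3-KI and 6.92, 6.21 and 7.33 CPM in INSL3-KO. The log2 changes were -5.04 (SE 0.24, edgeR adjusted p = 1.70e-06) and -2.84 (SE 0.12, adjusted p = 2.76e-06). Unlike the genes above, Lrp4 and Agrn stayed within a few fold of WT in every P8 group. Lrp4, the agrin receptor, stood at 40.4, 63.5 and 64.8 CPM in WT, at 29.1, 48.1 and 33.2 CPM in INSL3-KI, which overlapped WT (-0.57, SE 0.24, adjusted p = 0.0748), and at 19.5, 18.7 and 18.2 CPM in INSL3-KO, which was called lower (-1.59, SE 0.18, adjusted p = 2.29e-04). With all 5 groups in 1 fit the INSL3-KO call of Lrp4 was lost (adjusted p = 0.0671).

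Agrn encodes agrin, of which muscle, nerve, Schwann and other cells make different forms that these counts do not separate. It stood at 106, 147 and 159 CPM in WT at P8, 225, 216 and 228 CPM in INSL3-KI and 117, 122 and 112 CPM in INSL3-KO. All 3 INSL3-KI libraries lay above all WT libraries, a 1.67-fold difference (log2 0.74, SE 0.15, edgeR adjusted p = 0.00386) under the 2-fold threshold, whereas it reached the threshold by library size alone (1.06, adjusted p = 4.84e-04). INSL3-KO overlapped WT (-0.24, SE 0.15, adjusted p = 0.201), and the direction turned on the FPKM scale (0.66 and 0.69 by limma with 1 and 0.1 added), where the transcript length implied by count and FPKM for Agrn was 3676 to 5201 bases in the INSL3-KO gubernaculum libraries and 6583 to 7289 bases in the other gubernaculum libraries.

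None of these 5 genes was called by edgeR between the WT ages. Musk stood at 32.2, 30.2 and 22.4 CPM at P23 (log2 fold change -0.09, SE 0.19, adjusted p = 0.740) and Dok7 at 81.8, 54.2 and 62.5 CPM (0.44, SE 0.17, adjusted p = 0.0803). Rapsn stood at 52.7, 42.8 and 40.6 CPM (-0.76, SE 0.19, adjusted p = 0.0203), Agrn at 70.4, 76.7 and 90.2 CPM (-0.80, SE 0.18, adjusted p = 0.014) and Lrp4 at 19.3, 23.2 and 37.0 CPM (-1.09, SE 0.28, adjusted p = 0.0203), each below its P8 range. In INSL3-KI at P23 Musk (0, 0.123 and 0.132 CPM) and Rapsn (0.331, 0.430 and 0.353 CPM) were called lower than WT, by 8.30 (SE 0.86, adjusted p = 0.00514) and 6.92 (SE 0.24, adjusted p = 9.11e-04). Dok7 (3.31, 10.6 and 0.993 CPM) missed the threshold (-3.75, SE 0.85, adjusted p = 0.0407). Agrn lay above WT in all 3 libraries at 166, 140 and 192 CPM (2.11-fold, adjusted p = 0.0208). Lrp4 spread from 4.46 CPM in the library that stood apart to 37.5 and 83.0 CPM and overlapped WT (0.67, SE 0.91, adjusted p = 0.633).

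To compare the members with muscle content, the fit was repeated with the summed counts of the 14 fibre genes as library size. This was not done for INSL3-KI, where Acta1 made up most of the fibre sum. In INSL3-KO against WT at P8, 3 members were called lower relative to the fibre genes, where 2.24% of 15609 genes were: Chrng (log2 -2.25, SE 0.15, edgeR adjusted p = 1.94e-06), Musk (-2.39, SE 0.24, adjusted p = 2.46e-05) and Chrnd (-1.06, SE 0.10, adjusted p = 2.02e-05), the last not with the geometric mean of the fibre genes (-0.74). On the same scale the 14 fibre genes themselves ran from -1.54 to 0.80, a range that includes Chrnd, and 4 of them, named after their values were seen, were called lower (Actn2, Ttn, Cacna1s and Ryr1). Myh3 (-3.77) and Myh8 (-1.81) were called lower too. Dok7 (-0.88), Rapsn (-0.72) and Chrna1 (-0.33) lay below and Chrnb1 (0.31), Lrp4 (0.38) and Chrne (0.98) above the fibre genes without passing both thresholds. Agrn was called higher (1.73, SE 0.15), as were 78.3% of all genes, whose median was 1.99. In level, Chrng stood at 1.94 ± 0.269 CPM per 1000 fibre CPM in WT and 0.408 ± 0.0419 in INSL3-KO, and Musk at 0.761 ± 0.114 and 0.145 ± 0.0401 (SD, n = 3 each), while Chrna1 stood at 3.94 ± 0.412 and 3.13 ± 0.160.

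The fibre sum of WT was higher at P23 than at P8, and the same fit placed 8 members lower at P23 than at P8 relative to the fibre genes, where 47.2% of 14941 genes were called lower and the median of all genes was -1.17. Chrng (-4.79), Chrnd (-3.13), Chrna1 (-2.35) and Lrp4 (-2.18) lay furthest below, and Chrnb1 fell by 1.32 on this scale although its CPM overlapped between the ages. Chrne was the 1 member higher (1.76, SE 0.43, edgeR adjusted p = 0.00391), where 1.47% of genes were called higher, and this call was lost without any 1 of the 3 WT P8 libraries or without WT P23 replicate 2 (adjusted p = 0.0122 to 0.0252). Dok7 missed both thresholds (-0.78, adjusted p = 0.0199).

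**Figure D5:**
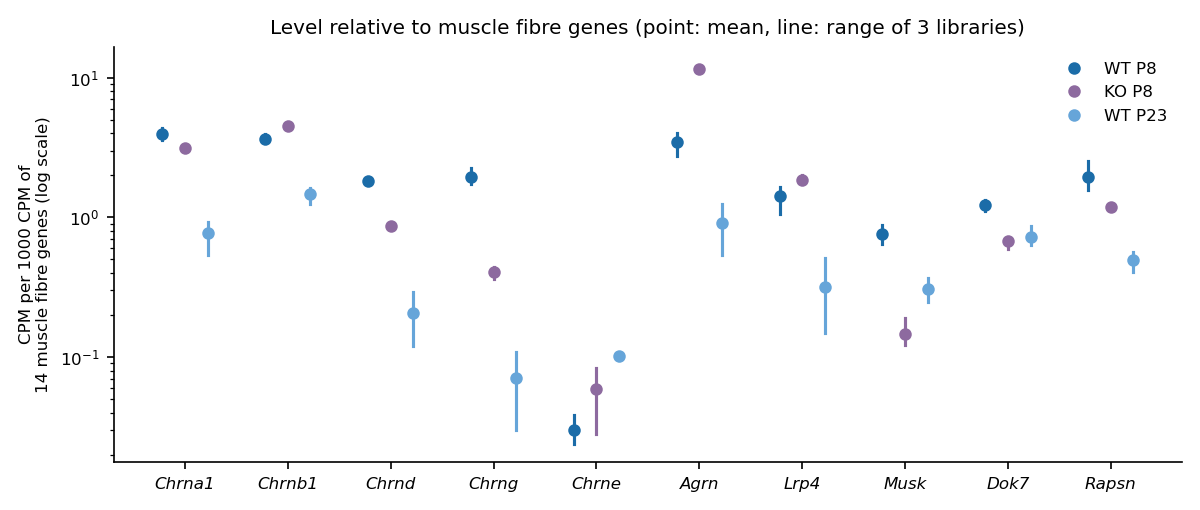
Level of each gene per 1000 CPM of the 14 muscle fibre genes, on a log axis, for WT at P8, INSL3-KO at P8 and WT at P23, with points at the mean and lines over the range of 3 libraries. Chrng and Musk lie below WT in INSL3-KO on this scale while Chrna1 and Chrnb1 lie near it, and Chrne is higher in WT at P23 than at P8.

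Among 35 other genes of the junction, 12 fell in INSL3-KI and 19 in INSL3-KO at P8 against WT, beside 9.7% and 15.2% of all genes, and 0 rose in either by edgeR or DESeq2 (5 and 4 at an unadjusted p under 0.05). The list's medians were -0.51 and -1.08, against 0.02 and 0.04 over all genes. The largest changes in INSL3-KI were in Scn4a, the sodium channel of the fibre membrane (-6.50, SE 0.32, edgeR adjusted p = 1.99e-06), and in Ache (-5.09) and Colq (-4.80), which encode acetylcholinesterase and the collagen tail that holds it in the synaptic cleft. In INSL3-KO, Scn4a (-3.98) and Ache (-3.87) fell as well, Ache from 131, 112 and 114 to 7.86, 7.95 and 8.75 CPM. Sntb1, a syntrophin of the dystrophin complex, was lower still in INSL3-KO (-6.95, SE 0.15, adjusted p = 5.87e-07), but its implied transcript length also differed between the count tables, and its testis level was 0.962 to 7.23 CPM in the first table and 0.16 to 0.997 CPM in the second. At P23 Colq (-6.23, adjusted p = 0.00204) and Ache (-5.20, adjusted p = 0.0017) were the 2 genes of the list called lower in INSL3-KI, and 0 were called higher (2 at an unadjusted p under 0.05, 1 by DESeq2). Over all genes at that age, 2.35% were called lower and 0.212% higher.

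Between P8 and P23 in WT, 5 of these 35 genes fell and 1 rose by edgeR, where 4.34% of all genes were called lower and 6.17% higher. Erbb4, a neuregulin receptor, fell from 11.8 to 12.7 CPM at P8 to 0.284 to 0.691 CPM at P23 (log2 fold change -4.80, SE 0.37, edgeR adjusted p = 5.91e-04), followed by the ligand Nrg1 (-1.84, adjusted p = 0.00813) and Sntb1 (-1.75, adjusted p = 0.00241).

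Of 12 regulators that respond to denervation or act outside the synapse, 6 fell and 1 rose in each mutant at P8, beside 9.7% of all genes lower and 14.4% higher for INSL3-KI, and 15.2% and 15.5% for INSL3-KO. Myog, the myogenic factor that binds E-boxes of the subunit genes, stood at 447, 347 and 381 CPM in WT, 0.102, 0 and 0.0876 CPM in INSL3-KI (-12.46, SE 0.33, edgeR adjusted p = 1.41e-07) and 54.2, 48.0 and 48.9 CPM in INSL3-KO (-2.97, SE 0.11, adjusted p = 1.99e-06). Myod1 fell by 11.32 in INSL3-KI and by 2.24 in INSL3-KO. The 1 gene that rose was Fbxo32, a ubiquitin ligase induced in muscle atrophy and also made in smooth muscle and heart, from 19.2, 21.0 and 19.1 CPM to 318, 441 and 294 CPM in INSL3-KI (4.19, SE 0.19, adjusted p = 1.24e-06) and 104, 105 and 107 CPM in INSL3-KO (2.41, SE 0.07, adjusted p = 1.06e-06). It stood at 11.2 CPM in the INSL3-KI P23 library with the low smooth muscle sum and at 173 and 260 CPM in the others. Trim63, its partner in atrophy, fell in INSL3-KI (-4.14, adjusted p = 1.09e-06). At P23, Myod1 and Myog had no count in INSL3-KI and were at least 1162-fold and 1106-fold lower than in WT, and Runx1 fell by 2.50. By edgeR or DESeq2, or at an unadjusted p under 0.05, 0 of the 12 rose. Over all genes, edgeR called 2.35% lower and 0.212% higher at P23. With age in WT, Myog fell by 1.97 (adjusted p = 0.00131) and Ncam1 by 1.23, while Fbxo32 (2.73), Trim63 (1.85) and Gadd45a (1.26) rose.

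Neuronal acetylcholine receptor subunits were scarce, with 6 of 11 passing the filter on low counts in either mutant comparison at P8. Chrna4 stood at 8.63, 9.27 and 9.80 CPM in WT and fell by 3.18 in INSL3-KI (edgeR adjusted p = 3.12e-05) and 2.14 in INSL3-KO (adjusted p = 6.36e-05). Chrna2 rose, by 7.10 (SE 0.73, adjusted p = 9.93e-05) and 3.55 (SE 0.60, adjusted p = 0.00147), from at most 0.443 CPM in WT to 14.3, 54.7 and 23.2 CPM in INSL3-KI and 2.26 to 3.11 CPM in INSL3-KO. At P23 it stood at 12.3 CPM in the 1 WT library that held Crisp1 and at 0 in the other WT libraries, and at 103, 0.461 and 175 CPM in INSL3-KI, where Crisp1 stood at 2244, 0.707 and 6894 CPM. Chrnb3, at 0 in WT, was at least 16.6-fold higher in INSL3-KI at P8, at 0.496 to 2.25 CPM, and Chrna7 was at least 8.87-fold lower in INSL3-KO. In WT, 1 of the 5 genes of this list that were tested fell with age, Chrna4 (-1.66, edgeR adjusted p = 0.00304), where 4.34% of all genes were called lower. At P23, 4 of the 11 were tested and edgeR called 0, with 2 lower and 1 higher at an unadjusted p under 0.05 and 1 each by DESeq2. Over all genes at P23, edgeR called 2.35% lower and 0.212% higher.

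On the nerve side, motor neuron cell bodies lie outside the tissue, and the acetylcholine synthesis gene Chat did not exceed 0.348 CPM in any gubernaculum library, a gene named after its values were seen. The summed level of 16 motor axon and presynaptic genes was 88.6 to 112 CPM in WT at P8, 40.2 to 46.5 CPM in INSL3-KI and 45.6 to 47.4 CPM in INSL3-KO. The highest genes of this list were Isl1 and Vamp1. Isl1 stood at 22.3 to 29.9 CPM in WT, 0.281 to 1.17 CPM in INSL3-KI and 10.3 to 12.5 CPM in INSL3-KO. Vamp1 stood at 10.5 to 12.2, 10.7 to 14.1 and 5.85 to 6.59 CPM. Their part in the difference between the sums was not tested. The receptor subunits summed to 424 to 481, 4.12 to 6.50 and 86.5 to 97.6 CPM. In INSL3-KI, 8 of the 11 genes tested fell and 2 rose, where 9.7% of all genes were called lower and 14.4% higher, with Isl1 (-5.05), the vesicular acetylcholine transporter gene Slc18a3 (-4.93) and Tubb3 (-3.20) furthest down and the synaptotagmin genes Syt1 (4.02) and Syt2 (2.59) up. In INSL3-KO, 5 of 13 fell and 3 rose, where 15.2% of all genes were called lower and 15.5% higher, with the neurofilament genes Nefm (-3.84) and Nefl (-2.19) and the peripherin gene Prph (-3.20) furthest down and Slc5a7 (3.78), Syt1 (2.39) and Syt2 (2.05) up. The implied transcript length of Syt2 in gubernaculum was 7137 bases in the first count table and 4146 bases in the second, which held INSL3-KO. With age in WT, 4 of the 11 genes tested fell and 0 rose by edgeR (1 at an unadjusted p under 0.05, 1 by DESeq2). Over all genes, 4.34% were called lower and 6.17% higher with age. Those that fell included Nefl (-4.83), Gap43 (-2.35) and Stmn2 (-2.34). At P23, 1 of the 9 genes tested fell in INSL3-KI, Isl1 (-6.25, edgeR adjusted p = 0.00755), where 2.35% of all genes were called lower. The sum of 7 Schwann cell genes was 184 to 280 CPM in WT, 209 to 222 CPM in INSL3-KI and 183 to 197 CPM in INSL3-KO at P8, and the groups overlapped. At P23 it was 455 to 535 CPM in WT and 38.5 to 209 CPM in INSL3-KI, and the motor axon and presynaptic sum was 64.1 to 102 and 22.0 to 28.5 CPM, neither with overlap. Within the latter sum, Isl1 stood at 26.2 to 53.4 CPM in WT and 0.132 to 0.768 CPM in INSL3-KI at P23. Vamp1 stood at 18.6 to 38.0 and 10.3 to 15.2 CPM.

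In the WT testis at P8, taken as reference, 9 of the 10 members were lower than in gubernaculum, where 14.1% of 15624 genes were called higher in gubernaculum and 14.3% lower. By library size alone the calls over all genes went from 2230 lower and 2208 higher to 3626 and 1488, with a median of -0.42. Chrnd and Chrne had no count in the 3 testis libraries and were at least 1019-fold and 16.8-fold higher in gubernaculum. Chrng was higher by 11.56 on the log2 scale (SE 0.41), Chrna1 by 10.85 (SE 0.47, edgeR adjusted p = 3.36e-06), Musk by 6.64 (SE 0.71), Rapsn by 5.80 (SE 0.27), Chrnb1 by 4.39 (SE 0.12), Dok7 by 2.89 (SE 0.15) and Lrp4 by 2.13 (SE 0.34). No member was called lower in gubernaculum by edgeR or DESeq2, and 0 were lower at an unadjusted p under 0.05. Agrn alone did not differ beyond its spread, with overlapping libraries and a log2 difference of -0.03 (SE 0.25, adjusted p = 0.915).

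Genes with courses most like those of 3 members across the 15 gubernaculum libraries were found by Pearson's r of log2 CPM among 14392 genes, as a description in which all points share the tissue content given above. For Chrna1 they were Mymk (r = 0.992), Angptl1 (0.989), Myog (0.988), Chrnd (0.987) and Myf5 (0.987). For Chrng they were Gjd4 (0.999), Myl4 (0.993), Myh3 (0.991), Mymx (0.988) and Actc1 (0.984), of which Myh3 encodes the embryonic myosin. For Chrne they were Myh4 (0.986), Lrrc30 (0.979), Tcap (0.978), Actn3 (0.977) and Slc25a4 (0.977), of which Myh4 encodes the fastest adult myosin and Actn3 an alpha-actinin of fast fibres.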

How the data were processed

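RNA-seq had been performed on mRNA libraries of gubernaculum and testis (39 libraries, 13 groups of 3), sequenced as 150-base paired ends; per the labels and methods, reads were mapped to GRCm38 with HISAT2. The authors deposited, in tables of 38822 and 58374 rows, raw counts per gene and FPKM, their length-scaled value; the counting program and strand setting are not given in the sources used here. Both tables were joined on Ensembl ID (21561 genes), rows without one (0.53 to 4.69% of counts) were left out, and no 2 libraries were identical.

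Counts were tested with edgeR 4.0.16 (R 4.3.3; filterByExpr, TMM, quasi-likelihood F test) in the 2 groups compared, or in all 4 groups for the interaction, with Benjamini-Hochberg adjustment over all genes. Printed CPM were TMM-scaled over the 15 gubernaculum libraries and separately over the 24 testis libraries, so levels are not comparable between tissues except by the test. FPKM served for levels between genes and for the Chrne to Chrng ratio, log2 with 0.1 added, tested by an exact permutation test. FPKM rest on lengths that differed between tables for some genes. A group with no count was bounded at 3 counts per library. Depth supports no firmer statement on genes with a few counts, and these floors cover counting error only. DESeq2 1.42.0, limma 3.58.1 on log2 FPKM, other filters, scalings, a replicate block, 1 joint fit and leaving out each library were alternatives. The procedure was checked on simulated counts.

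The members and gene lists were chosen with earlier results of these data known. From each other list, up to 3 called genes with the largest change in each direction are named; some genes that this rule gives are not reported here. Replicate numbers showed no general pairing of libraries. Deviations of the 30 same-numbered pairs correlated at -0.276 to 0.497 (median -0.009), of which 2 exceeded 0.1, beside 9 of 60 other pairs. Both lay between WT and INSL3-KI at P23 (0.371 for replicate 2 and 0.497 for replicate 3, but -0.132 for replicate 1). A differently numbered pair of that comparison reached 0.339, so pairing at P23 was not settled.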

Additional observations from a re-analysis of the deposited data

Results flagged for a closer look

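Muscle receptor genes were also read in testis libraries that entered no comparison above, and 10 values exceeded 2 times the highest WT testis library at P8. CPM here were scaled over the testis libraries, and SDs are over 3 libraries. Chrne, without a count in WT testis at P8, reached 42.5 ± 4.37 CPM in WT at P23 and 27.7 ± 5.05 CPM in WT at P40, but 3.43 ± 2.41 CPM in INSL3-KI at P23 and 0.459 ± 0.263 CPM at P40 (145, 187 and 29 counts at P23, 29, 11 and 14 at P40). The transcript length implied by count and FPKM for Chrne was 739 to 793 bases in WT testis at P23, which stood in the second count table, and 1645 to 1751 bases in the testis libraries of the first table, so the WT value at P23 is not like the others. The gene 4930544D05Rik, named after its values were seen, lies at chr11:70615848-70616890 on the forward strand within the span of Chrne. In WT testis 4930544D05Rik held 1798, 2470 and 2307 counts at P23 and 1640, 1485 and 1661 at P40. In INSL3-KI testis it held 111, 101 and 4 counts at P23 and 10, 0 and 0 at P40. Whether the counting used strand is not given in the sources used here, and the part of this gene in the Chrne counts was not tested.

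Dok7 stood at 21.1 ± 1.85 CPM in WT testis at P23 and 28.7 ± 3.48 CPM at P40, against at most 8.08 CPM at P8. Rapsn stood at 7.76 ± 1.35 and 8.47 ± 0.784 CPM, against at most 1.77 CPM. Chrna1 stood at 1.47 ± 0.203 CPM (30 to 40 counts) and 0.814 ± 0.387 CPM (14 to 32 counts), against at most 0.225 CPM. The WT P23 testis libraries stood in the second count table and the WT P8 and P40 libraries in the first.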

How the results depend on the processing

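Of 1280 values for single members under the alternatives, 1168 kept their direction and their side of the threshold, 54 lost a call, 31 gained one and 27 changed direction. Every alternative kept the call of 7 of the 8 members called in INSL3-KI at P8 (all but Chrne), of 7 of 8 in INSL3-KO (all but Lrp4), of 5 of 7 between the mutants, of 0 of 6 at P23 and of 1 of 4 with age in WT (Chrng). For genes named from the other lists, 117 of 700 values lost their call, and 103 of 448 list counts moved. Every alternative kept 10 of 15 of their calls in INSL3-KI at P8, all but Chrnb3, Chrna2, Slc18a3, Tubb3 and Syt2. It kept 6 of 16 in INSL3-KO, where Fbxo32, Chrna2, Chrna4, Chrna7, Nefm, Nefl, Slc5a7, Syt1 and Syt2 were among those lost. At P23 0 of 6 were kept, and with age in WT 1 of 13. In INSL3-KI against WT at P8, 1 member was called higher by library size alone and by limma with 1 or 0.1 FPKM added. Between the mutants, 2 were called higher by library size alone, 1 by limma with 0.1 added, and 0 to 1 when 1 library was left out. At P23, DESeq2 and 1 fit of all gubernaculum groups each called 1 member higher in INSL3-KI, and leaving out 1 library gave 1 to 8 members lower. With the replicate block 0 were called lower at P23, where pairing by replicate number was not settled. The block also lost Chrne at P8 (edgeR adjusted p = 0.0129) and Musk between the mutants (0.0153). With age in WT, the joint fit called 1 lower and 0 higher, and leaving out 1 library gave 0 to 1 higher, also relative to the fibre genes.

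Directions that changed belonged to members without a call. Agrn in INSL3-KO against WT turned to 0.656 and 0.685 by limma with 1 and 0.1 added. Lrp4 at P23 ranged from -0.364 to 1.14 (log2) when 1 library was left out, and with age in INSL3-KI to -0.37 and -0.695 by limma, -0.377 with the replicate block and ranged from -0.821 to 0.719 when 1 library was left out, as Chrnb1 did from -0.214 to 0.447. In WT, the age change ranged from -0.207 to 0.06 for Musk (0.031 without WT P8 replicate 3) and from -0.252 to 0.049 for Chrnb1 when 1 library was left out. For the interaction, DESeq2 and both limma fits called 1 lower, and limma called 3 higher with 1 added and 1 with 0.1 added; Chrna1 turned to 1.139 and 0.865, Chrnd to 1.862 and 1.81 and Musk to 0.147 and 0.11, and with 1 library left out the interaction ranged from -5.093 to 1.106 for Chrna1, -2.983 to 1.928 for Chrnd, -0.853 to 0.231 for Musk, -0.079 to 0.286 for Rapsn and -0.149 to 0.507 for Chrnb1. Agrn between gubernaculum and testis ranged from -0.227 to 0.212. The cause was not tested. The Chrne to Chrng ratio with age in WT was 5.052 with 1 FPKM added and 6.05 to 6.92 with 1 library left out. Its blocked exact p was 0.25, the replicate numbers giving no pairing between the WT ages (r = 0.012, -0.004 and -0.048). Depth limits Chrne at P8 and every gene with a few counts in INSL3-KI.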
